A study of Homo sapiens with 6 samples.

Results

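The epithelial junction and polarity genes are 41 genes, chosen by name from the 20345 protein-coding genes of the deposited table, that encode the contacts between neighbouring epithelial cells and the proteins that set their top and bottom. All 41 were found in the table by their HGNC symbol, and 40 passed the filter on low counts and were tested. They comprised 7 adherens junction genes, 7 desmosome genes, 15 tight junction genes, the adhesion molecule gene EPCAM with the protease gene ST14, 7 regulators of epithelial identity and 3 polarity genes. RNA-seq was done on SW1990, a human pancreatic adenocarcinoma cell line, to follow the transcriptome when LRRC8A, the essential subunit of the volume-regulated anion channel, is knocked down. The LRRC8A shRNA group (3 libraries) carried a hairpin against LRRC8A. The control shRNA group (3 libraries) carried a hairpin with no target. Cells of both groups were transduced with pLKO.1 lentivirus and selected with puromycin as stable lines. The labels name a single LRRC8A hairpin. The libraries of a group are described as biological replicates, but no label says that they came from separate transductions, so p-values measure only the spread between these libraries.

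In a polarised epithelium, tight junctions lie nearest the apical surface and seal the space between cells, adherens junctions below them couple E-cadherin to actin, and desmosomes anchor keratin filaments. The claudins form the strands of the tight junction and set which ions pass, while zonula occludens proteins and cingulin link the strands to the cytoskeleton. Where 3 cells meet, a separate set of proteins, the angulins and tricellulin, closes the corner. In carcinoma cells these genes are used to judge how far a line has kept epithelial identity, since SNAI and ZEB factors repress several of them during epithelial-mesenchymal transition.

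The 6 libraries held 37052641 to 42937612 counts, with 15385 to 15593 genes detected, and mitochondrially encoded mRNAs took 4.55% to 6.53% of counts. By the SD of log2 deviations from the group mean, over 9573 genes, no library stood apart, with 0.07 to 0.09 in every library. By a chi-square of counts between 2 replicates, per gene, the pairs with LRRC8A shRNA replicate 3 differed most. They had 17.3 and 21.3, against 10.5 for the other LRRC8A shRNA pair and 6.38 to 11.2 in controls. That library also had the highest mitochondrial share, 6.53%. LRRC8A (GRCh38, chromosome 9, 128882112 to 128918039) had 1782, 1411 and 1556 counts in LRRC8A shRNA libraries, against 3012, 2725 and 2667 in control libraries. That is a log2 fold change of -0.92 (SE 0.06, edgeR adjusted p = 1.46e-08), so mRNA of the target was lower but present in every LRRC8A shRNA library. Of the duct and carcinoma markers KRT7, KRT8, KRT18, KRT19, MUC1 and SOX9, all 6 reached 1 FPKM (fragments per kilobase of gene, scaled for library size) in 1 or more libraries. KRT7 was near that level, at 1.22 ± 0.224 FPKM in LRRC8A shRNA libraries and 1.20 ± 0.271 FPKM in controls (SD, n = 3 each). The summed level of the 6 was 4979 to 5473 FPKM in LRRC8A shRNA libraries and 6234 to 6648 FPKM in controls. Most of it was KRT8 and KRT18, with means of 3344 and 2656 FPKM in controls. KRT8 and KRT18, which overlap each other on opposite strands, had log2 fold changes of -0.29 and -0.38 and fell (edgeR adjusted p = 0.00523 and 0.000338), though KRT8 did not pass without control replicate 3 (edgeR adjusted p = 0.0702). Of the leukocyte, fibroblast, endothelial and islet markers 0 reached 1 FPKM, with CD3E, COL1A2, DCN, KDR, INS and GCG at 0 in all libraries. Of 4 acinar markers 1 reached it, PRSS1, with the list's sum at 10.7 to 15.2 FPKM in LRRC8A shRNA libraries and 16.0 to 19.3 FPKM in controls. The part of these markers in the results below was not tested.

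EPCAM, CDH1 and the claudin gene CLDN7 were among the members with the highest levels. Of 19 mesenchymal genes set beside them, CDH2, the N-cadherin gene that often replaces CDH1 in mesenchymal cells, had 0 counts in all 6 libraries. Others were expressed: PRRX1 averaged 15.3 ± 0.310 FPKM in LRRC8A shRNA libraries and 18.8 ± 0.623 FPKM in controls, S100A4 averaged 14.1 ± 1.16 FPKM in LRRC8A shRNA libraries and 18.3 ± 2.37 FPKM in controls, and ACTA2 averaged 7.51 ± 1.14 FPKM in LRRC8A shRNA libraries and 7.74 ± 0.817 FPKM in controls (SD, n = 3 each). VIM, the vimentin gene, averaged 0.449 ± 0.105 FPKM in LRRC8A shRNA libraries and 0.303 ± 0.0310 FPKM in controls (SD, n = 3 each), with a log2 fold change of 0.63 that did not pass (edgeR adjusted p = 0.298). ZEB1 averaged 0.521 ± 0.129 FPKM in LRRC8A shRNA libraries and 0.370 ± 0.0351 FPKM in controls (SD, n = 3 each), with a log2 fold change of 0.24 that did not pass (edgeR adjusted p = 0.574). Of the 11 tested in that list, 3 had a positive and 8 a negative log2 fold change. Among the negative ones were CDH11 (-1.19), SPARC (-0.85), TCF4 (-0.51) and S100A4 (-0.36). These did not pass (edgeR adjusted p = 0.0913, 0.194, 0.154 and 0.0645), and CDH11 and SPARC averaged only 0.881 and 0.801 CPM in controls. Per unit of length the members ranged from EPCAM at 270.0 ± 7.05 FPKM in LRRC8A shRNA libraries and 275 ± 4.30 FPKM in controls (SD, n = 3 each) to the skin desmoglein gene DSG3, listed at 0 counts in all 3 LRRC8A shRNA libraries and at 4, 2 and 0 counts in controls. DSG3 was the member that did not pass the filter.

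**Figure D1:**
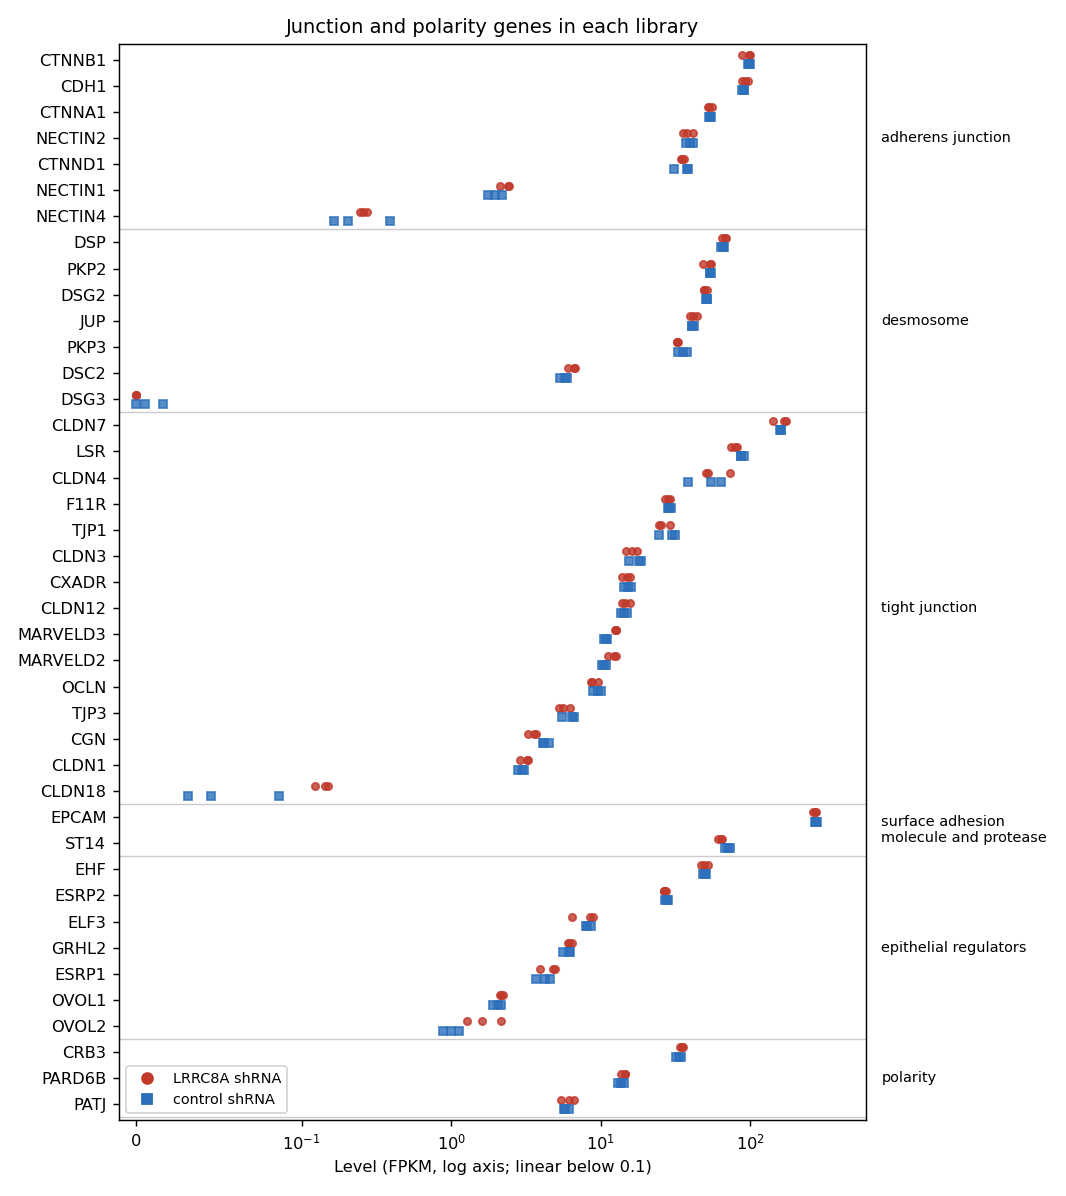
Level of each of the 41 members in each library, in FPKM on a log axis that is linear below 0.1, with LRRC8A shRNA libraries as red circles above control shRNA libraries as blue squares. Genes are ordered within each role by their control mean. EPCAM has the highest level, and DSG3 and CLDN18 the lowest of all members in control libraries.

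Of the 40 tested members, 3 fell and none rose in LRRC8A shRNA cells: CGN, LSR and ST14. That is 7.5% of those tested, against 4.35% of all 13551 tested genes (590 genes, edgeR adjusted p under 0.05), and the lower share among all genes was 2.58%. The changes were small, with mRNA changes between -18.8% and -12.1%. The share is a description of 40 genes, and nothing particular to the list is drawn from it. At an unadjusted edgeR p under 0.05 there were 9 members, 5 higher and 4 lower, against 18.3% of all tested genes. The groups did not overlap for 12 of the 40, against 23.6% of all tested genes. The median log2 fold change was -0.01 over the 40 and 0.00 over all tested genes. In bulk RNA, fewer cells with a transcript and less of it per cell cannot be told apart.

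**Figure D2:**
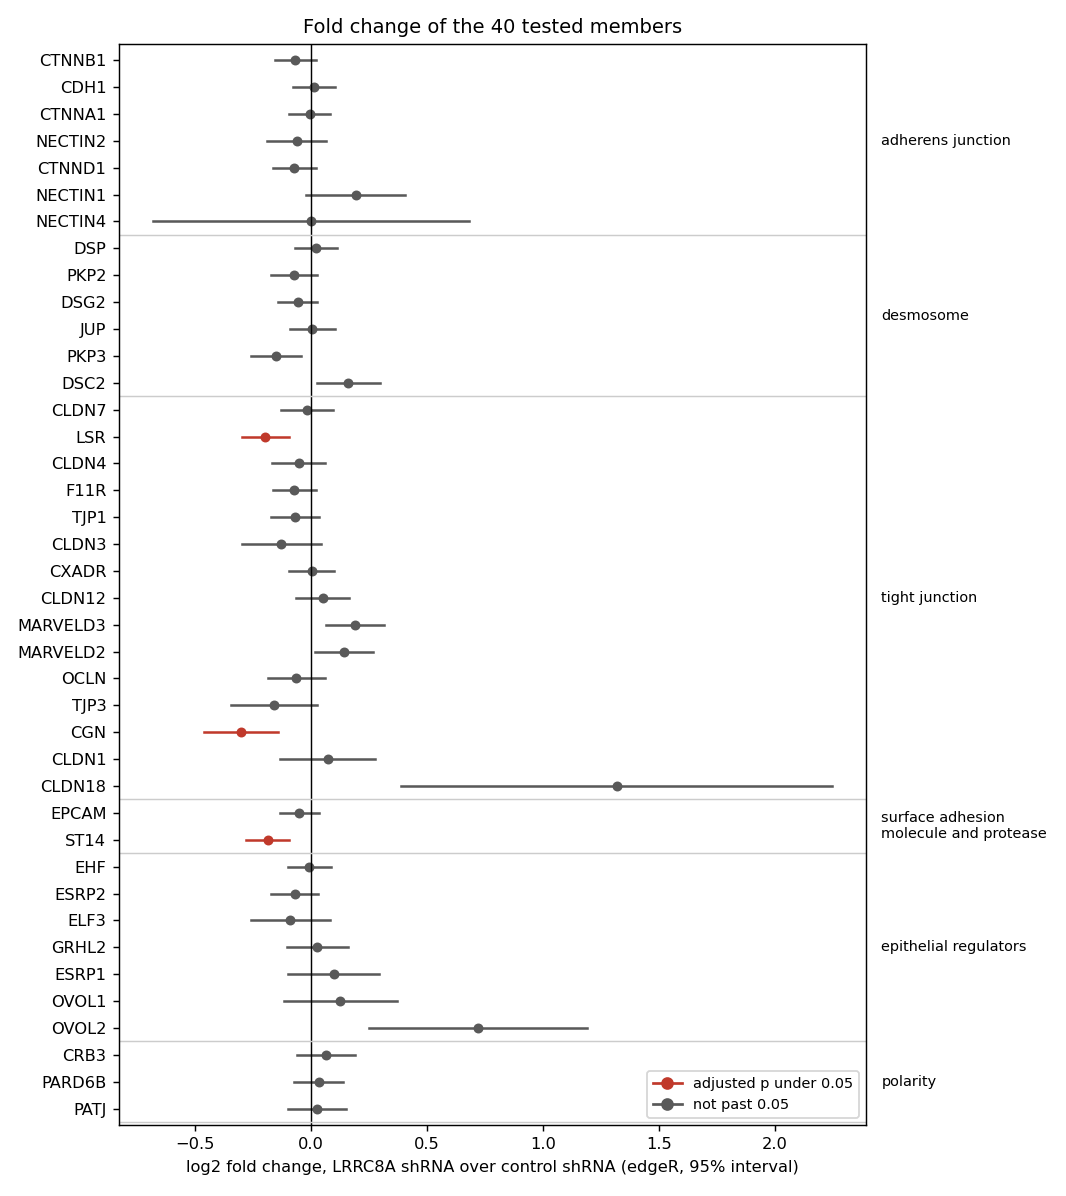
Log2 fold change of the 40 tested members, LRRC8A shRNA over control shRNA, with 95% confidence intervals from the edgeR fit, grouped by role. CGN (-0.30), LSR (-0.20) and ST14 (-0.19) are in red as past an adjusted p of 0.05. CLDN18 and OVOL2 lie farthest to the right with the wide intervals of low counts.

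Cingulin (CGN), a cytoplasmic plaque protein that ties the tight junction to actomyosin, showed the largest fall. Its level was 17.8, 20.2 and 20.7 CPM (counts per library size, adjusted by TMM) in LRRC8A shRNA libraries, against 24.98, 24.3 and 22.9 CPM in control libraries. Every LRRC8A shRNA value was below every control value. The log2 fold change was -0.30 (SE 0.08, edgeR adjusted p = 0.0301), which is a change of -18.8% with a 95% interval of -27.4% to -9.26%. CGN lies on GRCh38 chromosome 1, 151510510 to 151538692.

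LSR encodes angulin-1, which recruits tricellulin to the corners where 3 cells meet and is also a lipoprotein receptor. Its level was 178, 200.4 and 193 CPM in LRRC8A shRNA libraries, against 213, 214 and 228 CPM in controls. The groups did not overlap, and LRRC8A shRNA replicate 1 was the lowest library. The log2 fold change was -0.20 (SE 0.05, edgeR adjusted p = 0.0233). LSR lies on GRCh38 chromosome 19, 35248330 to 35267964, and GENCODE 29 places an antisense transcript on the other strand, whose reads may not be separate from those of LSR since the strand setting of the counting is not known.

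ST14 encodes matriptase, a membrane-bound serine protease of the epithelial surface that cleaves EPCAM and activates other proteases. Its level was 243, 262 and 258 CPM in LRRC8A shRNA libraries, against 288, 301 and 279 CPM in controls, again without overlap. The log2 fold change was -0.19 (SE 0.04, edgeR adjusted p = 0.0189), which is a change of -12.1%. ST14 lies on GRCh38 chromosome 11, 130159562 to 130210376.

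Permuting the 6 libraries exactly (two-sided) gave p = 0.1 for each of the 3, and no design of 3 against 3 can go lower. The calls rest on small margins. When each library was left out in turn, CGN and ST14 passed 3 of 6 times and LSR 2 of 6. Without LRRC8A shRNA replicate 1 or control replicate 1 or 2 none of the 3 passed (9, 10 and 9 members at an unadjusted edgeR p under 0.05). Fewer genes of any kind passed in these fits: 318 of 13686, 273 of 13714 and 246 of 13726, against 590 of 13551 with all libraries. At an unadjusted edgeR p under 0.05 they held 2066, 2020 and 2018 genes. LSR was also lost without control replicate 3. The highest edgeR adjusted p with 1 library left out was 0.146 for CGN, 0.130 for LSR and 0.111 for ST14. Limma on FPKM values called no member either, with 8 at an unadjusted limma p under 0.05. On log2(FPKM + 1) of genes of at least 1 FPKM, it called 182 of 11228 genes, with 1910 at that unadjusted p. DESeq2 called the same 3.

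**Figure D3:**
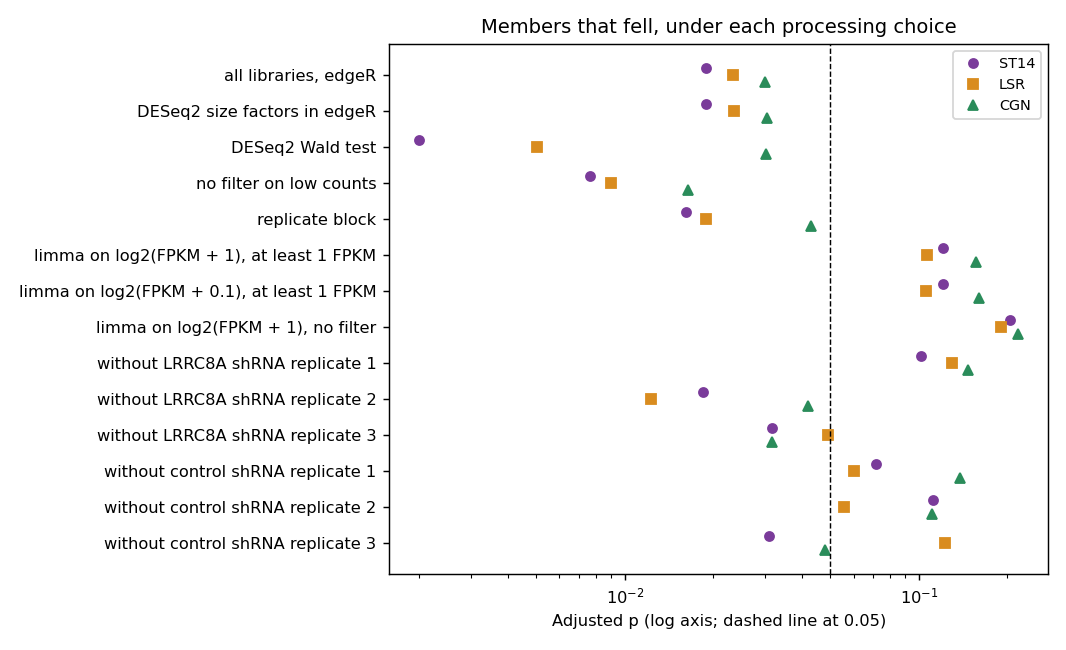
Adjusted p of ST14, LSR and CGN (log axis) for the edgeR fit on all 6 libraries and for each other way of processing, with a dashed line at 0.05. All 3 stay left of the line in the fits on counts of all libraries. All 3 lie right of it in the FPKM fits and without LRRC8A shRNA replicate 1 or control replicate 1 or 2.

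The promoters of CGN and LSR, from 250 bases before to 50 bases after the RefSeq start (GRCh38.p14), are shown because these members fell and both have an entry. The CGN window is chr1:151511137-151511436 and the LSR window chr19:35248752-35249051, both on the plus strand, written 5′ to 3′.
CGN: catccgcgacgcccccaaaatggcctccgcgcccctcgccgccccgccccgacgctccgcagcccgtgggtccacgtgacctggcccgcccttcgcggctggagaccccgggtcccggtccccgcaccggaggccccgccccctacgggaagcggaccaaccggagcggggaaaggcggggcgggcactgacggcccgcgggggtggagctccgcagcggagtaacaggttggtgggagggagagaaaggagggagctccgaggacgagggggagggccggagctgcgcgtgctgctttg
LSR: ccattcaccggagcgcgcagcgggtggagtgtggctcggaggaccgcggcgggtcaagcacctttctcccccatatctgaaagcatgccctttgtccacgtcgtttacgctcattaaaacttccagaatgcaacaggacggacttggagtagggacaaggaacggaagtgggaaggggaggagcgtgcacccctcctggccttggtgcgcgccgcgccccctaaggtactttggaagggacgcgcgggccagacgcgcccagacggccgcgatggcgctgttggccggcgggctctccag
Neither window holds the grainyhead-like word AACCGGTT, the SNAI/ZEB E-box word CAGGTG or its reverse complement CACCTG, or the AP-1 word TGANTCA, on either strand, and there are therefore no capitals. G and C made up 75.3% of the CGN window and 64.3% of the LSR window.

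The adherens junction genes did not pass the test, 0 of 7. CTNNB1, beta-catenin, had the highest level per length among them, and read 379.6, 386 and 355 CPM in LRRC8A shRNA libraries against 397, 389.8 and 387 CPM in controls. All 3 LRRC8A shRNA values were lower, by a log2 fold change of -0.07 (95% interval -0.16 to 0.02, edgeR adjusted p = 0.421). CDH1, E-cadherin, the adhesive receptor of the junction, read 486, 535 and 513 CPM in LRRC8A shRNA libraries against 493, 513 and 512 CPM in controls. The 2 groups overlapped, with a log2 fold change of 0.01 and an interval of -0.08 to 0.10, so a fall as large as that of CGN lies outside the interval. CTNNA1, alpha-catenin, which joins the complex to actin, had a log2 fold change of -0.01 (95% interval -0.10 to 0.08). CTNND1, p120-catenin, which keeps E-cadherin at the surface, had a log2 fold change of -0.07 (95% interval -0.17 to 0.02). Its annotated read-through partner TMX2-CTNND1 shares its sequence.

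Nectins are immunoglobulin-type adhesion molecules that start the contact. Shares were taken of the summed FPKM of the members NECTIN1, NECTIN2 and NECTIN4. NECTIN2 dominated these, with 93.7% ± 0.3504 in LRRC8A shRNA libraries and 94.6% ± 0.612 in controls (SD, n = 3 each). NECTIN3, which is not a member, averaged 4.24 ± 0.131 FPKM in LRRC8A shRNA libraries and 4.33 ± 0.355 FPKM in controls (SD, n = 3 each). That was above NECTIN1, at 2.31 ± 0.169 FPKM in LRRC8A shRNA libraries and 1.98 ± 0.213 FPKM in controls. NECTIN1 had the smallest p of the adherens junction genes, with 15.5, 14.8 and 12.7 CPM in LRRC8A shRNA libraries against 12.3, 14.0 and 11.4 CPM in controls. Its groups overlapped, and its log2 fold change was 0.19 (SE 0.10, edgeR adjusted p = 0.333). NECTIN4 was near the limit of detection, at 42, 37 and 41 counts in LRRC8A shRNA libraries and 25, 30 and 58 counts in controls, and its interval of -0.68 to 0.68 on the log2 scale leaves its change undetermined at this depth. NECTIN2 had a log2 fold change of -0.06 (95% interval -0.19 to 0.07).

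Among the desmosome genes 0 of the 6 tested passed. DSP, desmoplakin, which binds keratin filaments, had the highest level per length and read 640.0, 687 and 697 CPM in LRRC8A shRNA libraries against 650.4, 669 and 676 CPM in controls. The groups overlapped, with a log2 fold change of 0.02 (95% interval -0.07 to 0.11, edgeR adjusted p = 0.862). JUP, plakoglobin, had a log2 fold change of 0.01 (95% interval -0.09 to 0.10). PKP3, a plakophilin that clusters desmosomal cadherins, read 97.2, 101 and 96.6 CPM in LRRC8A shRNA libraries against 109, 117 and 102 CPM in controls. The groups lay apart by a narrow margin, with a log2 fold change of -0.15 (SE 0.05, edgeR adjusted p = 0.104). Its paralogue PKP2 took the larger part of the pair, 61.8% ± 1.43 of their FPKM in LRRC8A shRNA libraries and 60.6% ± 1.72 in controls (SD, n = 3 each), with a log2 fold change of -0.07.

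The desmosomal cadherins of this line were DSG2 and DSC2. DSG2 held 88.5% ± 0.455 of the FPKM of DSG2, DSC2 and DSG3 in LRRC8A shRNA libraries and 89.9% ± 0.522 in controls (SD, n = 3 each). DSC2, desmocollin-2, read 38.05, 35.10 and 39.0 CPM in LRRC8A shRNA libraries against 33.8, 35.06 and 31.5 CPM in controls. The groups touched but did not overlap. Its log2 fold change of 0.16 (SE 0.06) did not pass (edgeR adjusted p = 0.180). DSG2 read 325, 327 and 341 CPM in LRRC8A shRNA libraries against 347, 342 and 344 CPM in controls. The groups lay apart by a narrow margin, with a log2 fold change of -0.06 and a 95% interval of -0.14 to 0.03. Antisense genes overlap both DSG2 and DSC2 on the other strand.

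Of the 15 tight junction genes, 2 fell, CGN and LSR, and 13 did not pass. Claudin transcripts were led by CLDN7, with 63.6% ± 2.33 of the FPKM of the 6 claudin members in LRRC8A shRNA libraries and 64.8% ± 3.33 in controls (SD, n = 3 each). CLDN7 read 289, 287 and 247 CPM in LRRC8A shRNA libraries against 279, 273 and 281 CPM in controls. LRRC8A shRNA replicate 3 was the lowest of the 6, and the log2 fold change was -0.02 (SE 0.05, edgeR adjusted p = 0.918), with the sign turned to 0.05 without that library. CLDN4, like CLDN7 a claudin of simple epithelia, held 22.9% ± 2.92 in LRRC8A shRNA libraries and 21.1% ± 4.501 in controls, and CLDN3 held 6.37% ± 0.574 in LRRC8A shRNA libraries and 7.02% ± 0.899 in controls (SD, n = 3 each). The log2 fold changes were -0.13 for CLDN3 (95% interval -0.30 to 0.04), 0.05 for CLDN12 (95% interval -0.06 to 0.16) and 0.07 for CLDN1 (95% interval -0.13 to 0.27).

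CLDN18, whose isoforms mark stomach and lung and which is often switched on in pancreatic neoplasia, was almost silent. It had 25, 19 and 23 counts in LRRC8A shRNA libraries against 13, 5 and 7 counts in controls. The groups did not overlap, but at so few reads the log2 fold change of 1.32 has an SE of 0.44 and did not pass (edgeR adjusted p = 0.104). It is the largest fold change among the members and one of the least precise.

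CLDN4 gave different pictures in the deposited units. Its counts came to 153, 149.6 and 129.8 CPM in LRRC8A shRNA libraries against 148, 148 and 153 CPM in controls, a log2 fold change of -0.05 (SE 0.05). Its FPKM spread more widely, at 73.3, 52.0 and 50.5 in LRRC8A shRNA libraries against 55.1, 64.1 and 38.7 in controls, and limma on FPKM gave 0.16 (SE 0.25). The SD over libraries of the log2 ratio of FPKM to CPM was 0.32 for CLDN4, larger than for 99.7% of 9585 genes of at least 10 CPM, where the median was 0.03. The FPKM shares of the claudins given above carry this spread.

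**Figure D4:**
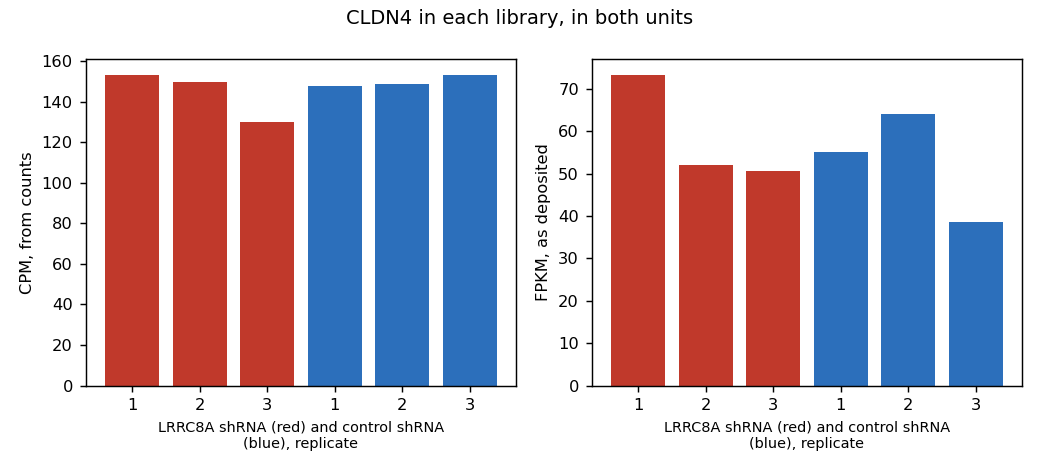
CLDN4 in each library, as CPM computed from the deposited counts (left) and as deposited FPKM (right), with LRRC8A shRNA libraries in red and control shRNA libraries in blue. Control replicate 3 has the lowest bar in FPKM (38.7) but the highest of the controls in CPM (153).

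MARVEL-domain proteins are membrane proteins of the strands. OCLN, occludin, had a log2 fold change of -0.06 (95% interval -0.18 to 0.06). MARVELD2, tricellulin, which LSR recruits, read 46.0, 47.0 and 46.4 CPM in LRRC8A shRNA libraries against 43.0, 39.2 and 44.1 CPM in controls. MARVELD3 read 35.8, 35.9 and 36.0 CPM in LRRC8A shRNA libraries against 32.7, 31.1 and 30.7 CPM in controls. For both genes every LRRC8A shRNA value was above every control value, but the log2 fold changes of 0.14 (SE 0.06) and 0.19 (SE 0.06) did not pass (edgeR adjusted p = 0.192 and 0.0829). MARVELD3 overlaps PHLPP2 on the other strand. At the 3-cell corner the transcripts of LSR and MARVELD2 thus had fold changes of opposite sign, of which that of LSR passed and that of MARVELD2 did not.

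The scaffold gene TJP1 (ZO-1) had a log2 fold change of -0.07 (95% interval -0.17 to 0.03), and TJP3 (ZO-3) of -0.16 (95% interval -0.35 to 0.02). F11R, the junctional adhesion molecule JAM-A, had a log2 fold change of -0.07 (95% interval -0.16 to 0.02). A TSTD1-F11R read-through row of the table shares its sequence and held 22, 570 and 44 counts in LRRC8A shRNA libraries against 22, 23 and 18 in controls. With those counts added to F11R, an alternative chosen after seeing the data, the log2 fold change was -0.02 (SE 0.04, edgeR adjusted p = 0.825). CXADR, an adhesion protein known as a virus receptor, had a log2 fold change of 0.00 (95% interval -0.09 to 0.10).

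**Figure D5:**
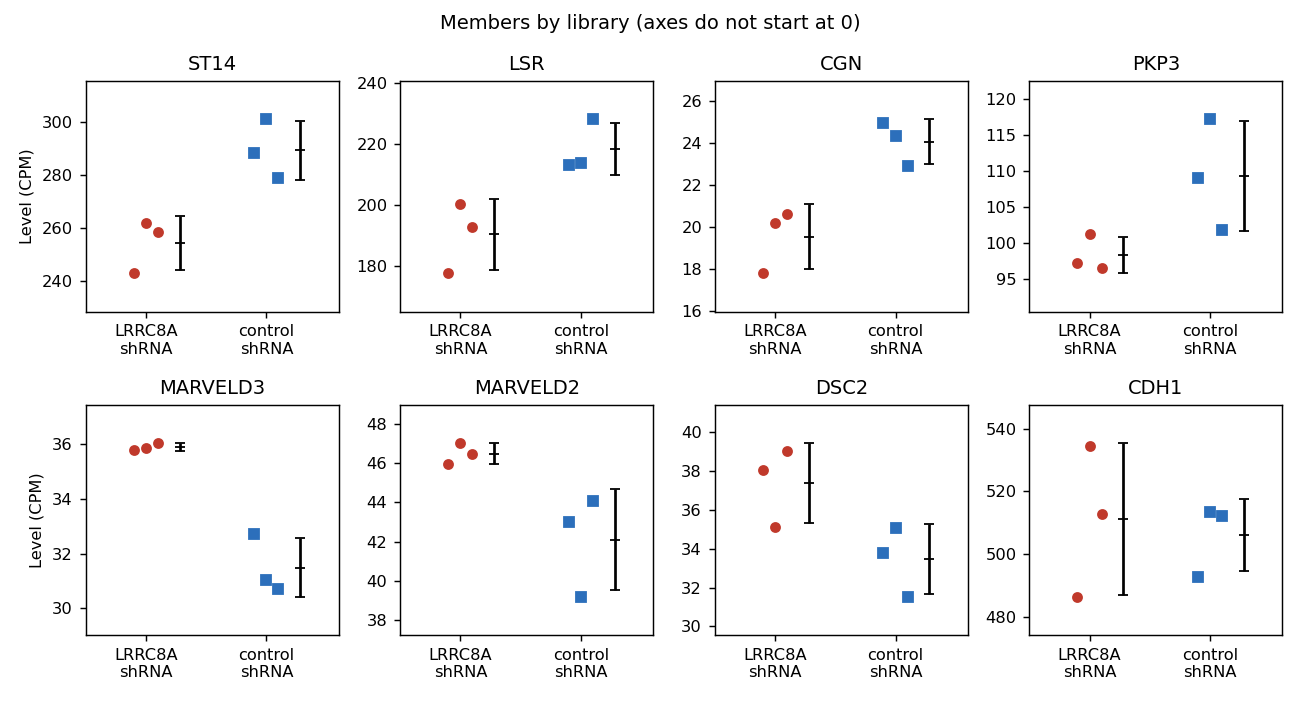
CPM in each library for the 7 members of at least 10 CPM with an unadjusted edgeR p under 0.05, and for CDH1, with LRRC8A shRNA (red circles) left of control shRNA (blue squares) and the mean and SD of each group in black. Axes do not start at 0. ST14, LSR and CGN are lower in all 3 LRRC8A shRNA libraries, MARVELD3 and MARVELD2 are higher in all 3, and CDH1 overlaps.

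EPCAM, an adhesion molecule of simple epithelia that stabilises CLDN7, had the highest level per length of all members. It read 527, 540.1 and 509 CPM in LRRC8A shRNA libraries against 551, 547 and 535 CPM in controls. The groups overlapped, with a log2 fold change of -0.05 (95% interval -0.13 to 0.03, edgeR adjusted p = 0.553).

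None of the 7 regulators passed. EHF, an ETS factor of glandular epithelium, was the most abundant per length and read 153, 155 and 165 CPM in LRRC8A shRNA libraries against 157, 161 and 158 CPM in controls. The groups overlapped, with a log2 fold change of -0.01 (95% interval -0.10 to 0.08, edgeR adjusted p = 0.962). Its relative ELF3 had a log2 fold change of -0.09 (95% interval -0.26 to 0.08). GRHL2, a grainyhead-like factor that activates junction genes including CDH1, had one of 0.03 (95% interval -0.10 to 0.16). ESRP2 and ESRP1 drive epithelial splice forms. ESRP2 held 85.5% ± 1.42 of the pair's FPKM in LRRC8A shRNA libraries and 86.8% ± 1.23 in controls (SD, n = 3 each), and the log2 fold changes were -0.07 for ESRP2 and 0.10 for ESRP1 (95% intervals -0.17 to 0.03 and -0.10 to 0.29). ESRP2 overlaps NFATC3 on the other strand.

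OVOL1 and OVOL2 are zinc-finger repressors that oppose epithelial-mesenchymal transition. OVOL2 had 97, 108 and 134 counts in LRRC8A shRNA libraries, or 2.22, 2.89 and 3.58 CPM, against 55, 74 and 66 counts, or 1.48, 2.00 and 1.77 CPM, in controls. All 3 LRRC8A shRNA values were above the controls. The log2 fold change of 0.72 (SE 0.22) did not pass (edgeR adjusted p = 0.0792), also with any 1 library left out. OVOL2 overlaps SNX5 on the same strand and MGME1 on the other. OVOL1 had a log2 fold change of 0.13 (95% interval -0.12 to 0.37).

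The 3 polarity genes did not pass. CRB3, the epithelial Crumbs protein of the apical membrane, read 37.5, 38.0 and 36.9 CPM in LRRC8A shRNA libraries against 35.6, 37.4 and 34.3 CPM in controls. Its groups overlapped, with a log2 fold change of 0.07 (SE 0.06, edgeR adjusted p = 0.619). PARD6B, of the PAR complex, and PATJ, a Crumbs-complex scaffold, each had a log2 fold change of 0.03, with 95% intervals of -0.07 to 0.14 and -0.10 to 0.15.

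GENCODE 29 places other genes on the opposite strand of several more members, among them ULK4 at CTNNB1, ELP5 at CLDN7 and DENND1C at CRB3, and their reads may be shared in the same way. For 23 of the 40 tested members the whole 95% interval lay within 0.25 of 0 on the log2 scale, against 6658 of all 13551 tested genes. With a mean of at least 10 CPM it was 23 of 36 members and 6629 of 9587 genes, so nothing particular to the members is drawn from it. For genes such as CDH1, CTNNA1, DSP and EHF the data thus bound a change to well under that of LRRC8A itself. With the members of each role group ordered by control FPKM, 30 of 35 neighbouring pairs did not overlap in the 3 control libraries. The overlapping neighbours were NECTIN2 with CTNND1, F11R with TJP1, CLDN3 with CXADR, CXADR with CLDN12 and MARVELD3 with MARVELD2.

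Genes of the same structures outside the 41 were counted in the same fit. Of 30 tested among 37 other junction and scaffold genes, 2 fell and none rose, with a median log2 fold change of 0.00. That is 6.67% of those tested. Among all tested genes 4.35% passed, 1.77% higher and 2.58% lower, and the counts of the lists below stand beside the same shares. CLDN2, which forms cation and water pores in leaky epithelia, read 161, 172 and 155 CPM in LRRC8A shRNA libraries against 211, 217 and 192 CPM in controls. Its log2 fold change of -0.34 (SE 0.05, edgeR adjusted p = 0.000800) passed the test, also with any 1 library left out. ILDR1, angulin-2 and so a relative of LSR, is named after its values were seen: it read 7.11, 9.36 and 8.28 CPM in LRRC8A shRNA libraries against 11.8, 10.0 and 10.6 CPM in controls. Its log2 fold change of -0.39 (SE 0.12) did not pass (edgeR adjusted p = 0.0611).

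Of 23 tested among 24 other polarity genes, 1 rose, DLG5, a scaffold of the Discs large family, with a log2 fold change of 0.19 (SE 0.05, edgeR adjusted p = 0.0256). It passed without LRRC8A shRNA replicate 1 (edgeR adjusted p = 0.0278) but with none of the other libraries left out (up to 0.110), and the median of that list was -0.00. None of the 7 tested matriptase inhibitors and partner proteases passed, with 4 at an unadjusted edgeR p under 0.05 (3 lower and 1 higher, against 18.3% of all tested genes at that p) and a median log2 fold change of -0.13. The 3 lower were the matriptase inhibitor genes SPINT1 and SPINT2 and the receptor gene F2RL1, with log2 fold changes of -0.14, -0.13 and -0.14 (edgeR adjusted p = 0.0990, 0.121 and 0.102). The 1 higher was the protease gene TMPRSS2, with a log2 fold change of 0.19 (edgeR adjusted p = 0.211), and PRSS8, prostasin, had one of 0.08 (edgeR adjusted p = 0.505). None of the 11 tested further epithelial transcription factors passed, with 1 at an unadjusted edgeR p under 0.05 and a median of 0.00. Of 11 tested among 19 mesenchymal genes, 1 fell and none rose: PRRX1, a homeobox gene, with a log2 fold change of -0.30 (SE 0.05, edgeR adjusted p = 0.000938). At an unadjusted edgeR p under 0.05 there were 5 lower and 0 higher in that list, against 1303 lower and 1172 higher of all 13551 tested genes. The list had a median of -0.26, on genes whose median level was 1.93 CPM.

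RefSeq promoter windows were matched by symbol for 25 of the 41 members. Of these, 11 held the E-box word CAGGTG or CACCTG, which 20.6% of 27305 windows of the same length hold: NECTIN4, DSP, DSG2, DSC2, CLDN3, CLDN18, OCLN, TJP1, ELF3, CRB3 and PATJ. The AP-1 word was in 1 window (4%), that of CLDN4, against 7.76% of all windows and 4.54% of the 10814 windows of tested genes. The grainyhead-like word was in none, against 0.117% of all windows and 0.129% of those of tested genes. A word this rare was unlikely to occur in 25 windows, so nothing is drawn from its absence, also in CGN and LSR. For the E-box word the share in windows of tested genes was 19.2%. The E-box windows of OCLN and CLDN3, genes reported as targets of SNAI factors, and the CLDN4 window are shown with these words in capitals. They lie at chr5:69492297-69492596 (plus strand), chr7:73770221-73770520 (minus strand) and chr7:73830746-73831045 (plus strand) in GRCh38.p14.
OCLN: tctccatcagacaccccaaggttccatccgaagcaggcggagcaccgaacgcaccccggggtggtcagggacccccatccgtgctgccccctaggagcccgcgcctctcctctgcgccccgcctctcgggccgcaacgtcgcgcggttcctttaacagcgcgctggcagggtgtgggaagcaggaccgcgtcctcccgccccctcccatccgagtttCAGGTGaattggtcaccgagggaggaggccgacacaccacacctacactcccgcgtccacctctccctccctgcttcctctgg
CLDN3: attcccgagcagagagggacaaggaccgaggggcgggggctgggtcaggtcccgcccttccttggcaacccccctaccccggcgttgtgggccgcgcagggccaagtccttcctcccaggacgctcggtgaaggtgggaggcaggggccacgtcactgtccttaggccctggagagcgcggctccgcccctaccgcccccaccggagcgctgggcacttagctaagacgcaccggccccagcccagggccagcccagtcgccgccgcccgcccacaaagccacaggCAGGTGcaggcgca
CLDN4: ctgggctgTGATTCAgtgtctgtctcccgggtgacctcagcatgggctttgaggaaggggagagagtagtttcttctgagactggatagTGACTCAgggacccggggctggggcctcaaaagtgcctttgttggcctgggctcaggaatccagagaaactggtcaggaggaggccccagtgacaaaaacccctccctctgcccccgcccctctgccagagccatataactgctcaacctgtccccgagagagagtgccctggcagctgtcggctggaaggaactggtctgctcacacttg
The E-box starts 33 bases before the start in OCLN and at base 37 after it in CLDN3, and the AP-1 words begin 242 and 161 bases before the start in CLDN4. None of these 3 genes passed the test in LRRC8A shRNA cells.

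A 7-base word, GTGTCAC, known from earlier results of these data to be frequent in the 3′ UTRs of genes that rose, was scanned in GENCODE 29. It was in 32.2% of 236 genes that rose, 11.05% of 344 that fell and 10.3% of 12499 that did not pass. Among the 41 members it was in 1, CXADR, at base 3601 of a 3′ UTR of 4408 bases, and the site is shown with the word in capitals.
CXADR: aatgctttgatGTGTCACataaagagtag
CXADR had 83.6, 81.6 and 78.3 CPM in LRRC8A shRNA libraries against 82.3, 78.8 and 81.7 CPM in controls, which overlap. CGN, LSR and ST14 do not hold the word.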

How the data were processed

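RNA from SW1990 cells was sequenced in 3 LRRC8A shRNA and 3 control shRNA libraries, made with a stranded mRNA kit per the labels' protocols. The submitters' processing notes name StringTie 2.2.3, HISAT2 2.2.1 and fastp 0.23.2, and the builds GRCh38 and mm10 with no role. Which program counted reads, and with which strand setting, is not stated there, so reads of genes that overlap on opposite strands may be mixed. The deposited counts are whole numbers per gene, not normalized. In the deposited FPKM and TPM values the authors had corrected for length and depth.

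Counts were filtered with filterByExpr, scaled by TMM and tested in edgeR 4.0.16 under R 4.3.3 by its quasi-likelihood test (robust, two-sided) over 13551 genes, with Benjamini-Hochberg adjustment and a threshold of 0.05. SE is the size of the log2 fold change divided by the square root of F, and 95% intervals use its t distribution. The steps were tested on simulated counts, where the smaller changes were recovered in part and the share of false calls among all calls was above the threshold used for adjusted p. Alternatives were DESeq2 1.42.0, its size factors, no filter, a replicate block, limma 3.58.1 with a trend on log2(FPKM + 1) or log2(FPKM + 0.1), keeping genes that reached 1 FPKM in 3 or more libraries, or with no such filter, and each library left out. No label separates the libraries into batches.

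Members, role groups, comparison lists, words and tests were chosen with earlier results of these data known. All values are given for members that passed, the most abundant and the smallest p of each role, and the 3 largest fold changes. CDH1, CLDN4, DSC2, DSG2, MARVELD2, MARVELD3 and CXADR were given in full after their values were seen. In the comparison lists, genes that passed are named, except 1 that is not reported here, and others were named after their values were seen. For 1 of the 41 members the table gave the same coordinates as GENCODE 29 (GRCh38), so positions come from GENCODE 29 by Ensembl identifier, and promoters from RefSeq (GRCh38.p14).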

Additional observations from a re-analysis of the deposited data

How the results depend on the processing

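The number of genes changed, 590 in edgeR on all libraries, was 182, 179 and 16 by limma on log2(FPKM + 1), on log2(FPKM + 0.1) and without the FPKM filter. It ranged from 246 to 504 when 1 library was left out, with 318 without LRRC8A shRNA replicate 1 and 273, 246 and 346 without control replicates 1, 2 and 3. The number of members changed, 3 in edgeR, was 0 in each of those 3 limma fits and 0 to 3 when 1 library was left out. Each limma fit had 8 members at an unadjusted limma p under 0.05, beside 1910 of 11228, 1907 of 11228 and 2368 of 17107 genes. LRRC8A ranged from -0.95 to -0.86 on the log2 scale when 1 library was left out and passed under every alternative. The fits with DESeq2, its size factors or no filter gave the same 3 members. Same-numbered libraries did not deviate together (correlations 0.03, -0.09 and 0.01 for replicates 1, 2 and 3), so the numbers are not taken as pairs; with the replicate block, 671 genes and 3 members changed. Signs turned for members that did not pass: CLDN4 in the 3 limma fits (0.16, 0.17 and 0.16) and, with 1 library left out, CLDN4 (-0.10 to 0.017) and CLDN7 (-0.056 to 0.054), both without LRRC8A shRNA replicate 3, NECTIN4 without control replicate 3 (-0.23 to 0.45), ELF3 without LRRC8A shRNA replicate 2 (-0.15 to 0.0049) and PATJ without LRRC8A shRNA replicate 1 (-0.045 to 0.074). The cause was not tested. Of 517 values of single members under alternatives, 490 kept their side of the threshold and either kept their sign or turned it by less than 1 SE, 19 no longer passed and the 8 above changed sign by more. Depth limits NECTIN4, CLDN18, OVOL2 and DSG3, where counts were lowest.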
